A study of Homo sapiens with 30 samples.

Results

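The p53 feedback regulators are a small set of genes whose products restrain the tumour suppressor p53 and several of which p53 itself switches on. The set described here is MDM2, MDM4, PPM1D, CCNG1 and RCHY1, taken by their symbols: every probe set annotated to exactly 1 of these symbols was used, which gave 23 of 54613 probe sets (MDM2 10, MDM4 6, PPM1D 2, CCNG1 1 and RCHY1 4). The cells were A375, an established human melanoma line that is generally described as carrying functional p53. Cultures received either 0.065% DMSO, the vehicle, or MLN4924 at 650 nM for 1, 2, 4, 8 or 24 h, so that each time of exposure had its own vehicle group. MLN4924 (pevonedistat) inhibits the NEDD8-activating enzyme and thereby the cullin-RING ubiquitin ligases, which need NEDD8 on their cullin subunit. Each of the 10 groups had 3 Affymetrix HG-U133 Plus 2.0 arrays, 30 in all, and nothing in the labels says whether the 3 are separate cultures, so each p-value reflects array-to-array spread that may be technical alone. A375 is 1 line, and a single drug concentration was used.

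In an unstressed cell p53 is made continuously and destroyed continuously. MDM2 is the ubiquitin ligase that binds p53 and marks it for the proteasome, and MDM4 is its close relative, which covers the activation domain of p53 and pairs with MDM2. PPM1D (Wip1) is a phosphatase that removes stress-induced phosphates from p53 and from the kinases upstream of it. CCNG1 encodes cyclin G1, which brings a phosphatase to MDM2, and RCHY1 encodes Pirh2, another ubiquitin ligase of p53. MDM2, PPM1D, CCNG1 and RCHY1 have all been described as p53 target genes, which closes a negative feedback loop, whereas MDM4 is mostly known for regulation of its splicing and protein stability.

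MDM2 has a pair of promoters, an outer one before its first exon and an inner one that is the textbook site of p53 control, and the RefSeq table (build GRCh38.p14) holds windows for both. All 5 genes were matched in it, with 12 windows of 250 bases upstream of annotated starts (MDM2 4, RCHY1 4, CCNG1 2, MDM4 1 and PPM1D 1). The windows of MDM2 and PPM1D are shown because these were the members with the largest response, and the MDM2 pair because they differ in p53 response elements. Capitals mark matches to the p53 consensus response element, a 20-letter sequence made of a pair of adjoining 10-letter units, with at most 3 mismatches on either strand. The search for the 20-letter element was added after the sequences had been seen. The windows run 5′ to 3′ on the plus strand, as follows.
MDM2 inner promoter, chr12:68808767-68809016: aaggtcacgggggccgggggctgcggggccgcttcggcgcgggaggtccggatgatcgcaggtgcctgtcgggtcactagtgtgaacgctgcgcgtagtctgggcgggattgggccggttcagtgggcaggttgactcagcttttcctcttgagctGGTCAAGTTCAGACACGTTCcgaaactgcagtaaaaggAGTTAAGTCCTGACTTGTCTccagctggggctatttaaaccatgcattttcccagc
MDM2 outer promoter, chr12:68807922-68808171: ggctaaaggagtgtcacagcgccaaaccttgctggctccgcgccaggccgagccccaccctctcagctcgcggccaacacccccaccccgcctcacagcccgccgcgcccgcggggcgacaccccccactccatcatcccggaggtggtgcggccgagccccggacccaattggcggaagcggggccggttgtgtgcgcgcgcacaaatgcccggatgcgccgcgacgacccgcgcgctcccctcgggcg
PPM1D promoter, chr17:60599943-60600192: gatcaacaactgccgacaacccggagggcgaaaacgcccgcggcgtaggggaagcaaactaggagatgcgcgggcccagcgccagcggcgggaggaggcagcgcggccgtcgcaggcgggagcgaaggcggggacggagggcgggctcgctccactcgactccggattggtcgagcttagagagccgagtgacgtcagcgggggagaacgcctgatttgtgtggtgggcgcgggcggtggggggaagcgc

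The inner MDM2 window held 2 such elements, upstream of the annotated start, and a second window, to a nearby inner start, held the same 2. The first, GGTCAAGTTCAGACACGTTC at chr12:68808923-68808942, lay 94 to 75 bases before the start and had 2 mismatches. The second, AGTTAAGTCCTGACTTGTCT at chr12:68808961-68808980, lay 56 to 37 bases before the start and had 3 mismatches. No match to the element was found in the outer MDM2 windows or in the windows of PPM1D, MDM4, CCNG1 and RCHY1, which says only that these letters are not within those 250 bases. Of 35116 promoter windows in the table, 0.561% held the element with at most 2 mismatches and 4.36% with at most 3. The 10-letter unit without mismatch was in 5.57% of the windows and in none of the 12. A match is a description of the sequence, not evidence of binding.

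Signals are given as quantile-normalized probe set signals on a linear scale, and differences as log2 of the signal plus 32, MLN4924 minus DMSO at the same time. A probe set was called when limma's adjusted p was under 0.05. The level of a probe set depends on its probes, so no difference in level between probe sets is read as a difference in RNA, and sums over marker probe sets are set side by side between groups only. For each gene the probe set with the highest mean is the leading one. All 23 probe sets exceeded the median of all values, 36.58, in at least 1 group, and 18 did so in every group. The median of an array was 32.6 to 44 in the deposited signals, pairs of arrays correlated at 0.9538 or above, and the 3′ to 5′ signal ratio of ACTB, a measure of RNA integrity, averaged 1.227 to 1.364 in 9 groups and 1.563 in DMSO at 2 h. Of 9 measured melanocyte lineage markers 6 exceeded the median in at least 1 group. These were SOX10, MITF, PAX3, S100B, TFAP2A and, with a highest group mean of 62.17, TYR. The pigment cell genes PMEL, MLANA and TYRP1 did not. The summed signal of the 9 markers was 2387 in DMSO and 1493 in MLN4924 at 8 h and 2964 and 1604 at 24 h. Group means ranged most for S100B (61.36 to 980.9) and SOX10 (320.3 to 1059), which weigh most in the sum. Of the 9, 2 were called lower and 1 higher at 8 h, and 3 lower and 1 higher at 24 h. Of all genes 6.07% were called lower and 7.52% higher at 8 h, and 17.2% and 15.2% at 24 h. The median difference of the 9 was -0.09 at 8 h and -0.21 at 24 h. Markers of fibroblasts summed to 280.7 to 421.5 over the groups (4 of 6 above the median) and of epithelium to 119.3 to 227.1 (2 of 5). Those of blood summed to 187.1 to 215.4 (2 of 4) and of endothelium to 80.8 to 130.8 (1 of 3). Highest group means of those above the median were 176.2 for COL1A1, 157 for KRT14, 156.3 for HBB and 107.2 for PECAM1. They were 97.56 for LUM, 82.54 for DCN, 66.12 for KRT5, 54.67 for CD3E and 38.54 for COL1A2. The others, such as EPCAM, PTPRC, CDH5 and COL3A1, were below the median everywhere. The part of these shifts in the results was not tested. In bulk RNA a lower level cannot be told apart from fewer cells expressing the gene.

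By limma, none of the 5 genes was called at 1, 2 or 4 h, MDM2 and PPM1D were called higher and MDM4 lower at 8 h, and all 5 were called higher at 24 h. Over the leading probe set of each of 19775 genes, 0.0152% were called at 1 h, 0.455% at 2 h, 2.91% at 4 h, 13.6% at 8 h and 32.4% at 24 h. Of the 23 probe sets, 10 were called higher and 4 lower at 8 h, against a background of 9.74% of all probe sets called in either direction (5.1% higher and 4.64% lower; with median centring 73.5% of the calls were higher, in place of 52.4%, and with signals as deposited 41.7%). At 24 h, 20 were called higher and 0 lower, against a background of 24.8% (12.2% higher and 12.6% lower). The median difference over the 23 was 0.34 at 8 h and 1.01 at 24 h, beside 0.00 at 8 h and 0.01 at 24 h over all probe sets. MDM2 supplies 10 of the 23, and probe sets of 1 gene are not replicates, so counts and medians over the 23 weigh MDM2 most. At 8 h the median over a gene's probe sets was 0.67 for MDM2 and 1.015 for PPM1D. It was -0.37 for MDM4, -0.16 for RCHY1 and -0.03 for CCNG1. At 24 h these medians were, in the same order, 2.75, 2.06, 0.38, 0.32 and 0.23. The F test of the 5 drug effects called 4 of the 5 genes, with RCHY1 at an adjusted p of 0.0835 in limma, and 30.6% of all genes.

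**Figure D1:**
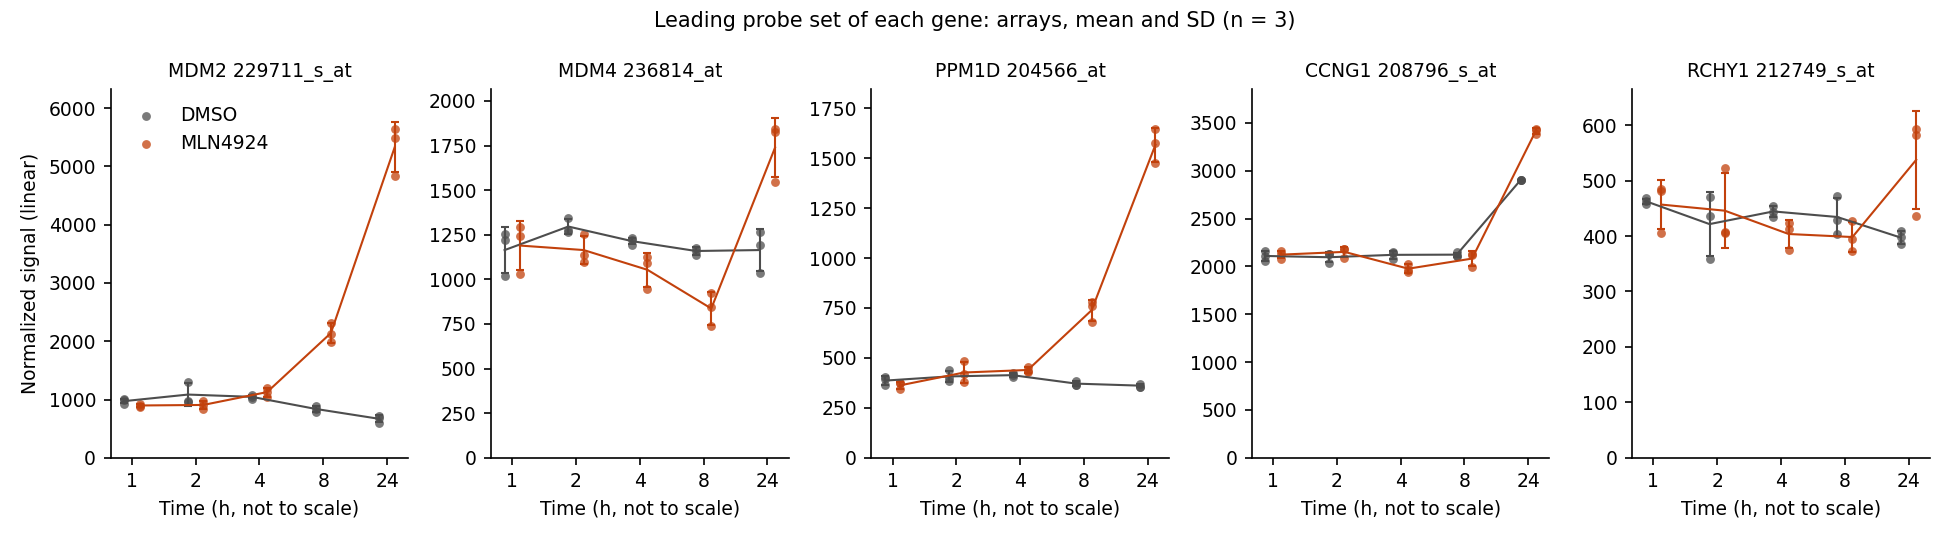
Normalized signal (linear, from 0) of the leading probe set of each gene against time in h, with DMSO arrays in grey and MLN4924 arrays in orange; points are arrays, lines join group means and bars are the SD of 3 arrays. MDM2 and PPM1D part from DMSO at 8 h and reach 5328 and 1567 at 24 h, MDM4 dips to 837 before it rises, and CCNG1 rises in both arms at 24 h.

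MDM2, the main p53 ligase, had the largest response. Its leading probe set, 229711_s_at, read 2320, 1982 and 2121 on the MLN4924 arrays at 8 h, and 791, 888 and 839 on the DMSO arrays. At 24 h the MLN4924 arrays read 5494, 5649.9 and 4842, and the DMSO arrays 605, 724 and 677. The groups did not overlap at either time, and the lowest treated array at 24 h was above the highest at 8 h. MDM2 was 2.55-fold higher in mean signal at 8 h, a log2 difference of 1.32 (SE 0.0957, limma adjusted p = 7.81e-10), and 7.97-fold higher at 24 h, a log2 difference of 2.94 (SE 0.0957, limma adjusted p = 4.13e-17). Among the leading probe sets of 19775 genes this was rank 34 at 8 h and rank 12 at 24 h when sorted from the largest increase.

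Before 8 h the MDM2 probe set differed little from its vehicle level. The log2 difference at 1 h was -0.11 (95% interval -0.31 to 0.09), at 2 h -0.24 (-0.44 to -0.04) and at 4 h 0.10 (-0.09 to 0.30), none of them called, although the 3 treated arrays at 1 h (893, 876 and 925) lay just below the 3 vehicle arrays (1004, 929.8 and 985). At 4 h the treated arrays read 1047, 1201 and 1136 and the vehicle arrays 1049.7, 1017 and 1072, so that the groups overlapped. The drug effect grew by 1.21 from 4 to 8 h (SE 0.135, limma adjusted p = 1.97e-05) and by another 1.62 from 8 to 24 h (limma adjusted p = 6.78e-09). A growth of the effect in either direction was called for 1.06% of all genes from 4 to 8 h and for 17.6% from 8 to 24 h.

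In the vehicle arm MDM2 was lower at 24 h than at 1 h. Its DMSO means were 973 ± 38.6 at 1 h, 839 ± 48.5 at 8 h and 669 ± 60.3 at 24 h (SD, n = 3 each). The difference of -0.52 from 1 to 24 h was called (limma adjusted p = 4.54e-04), where 16.5% of all genes were called. With the MDM2 probe sets averaged it was -0.17 and not called (limma adjusted p = 0.087, range over its alternatives 1.05e-04 to 0.087). Within the MLN4924 arm MDM2 rose by 2.52 between the same times (limma adjusted p = 1.17e-15), where 28.3% of all genes were called. In order of level the group means ran from MLN4924 at 24 h (5328 ± 429) to MLN4924 at 8 h (2141 ± 170), then MLN4924 at 4 h (1128 ± 77.4), and down to DMSO at 8 h and DMSO at 24 h. The top 2 groups overlapped no neighbour in that order, and neither did DMSO at 24 h at the bottom, whereas most steps between them overlapped, such as MLN4924 at 4 h with DMSO at 2 h.

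The other MDM2 probe sets moved the same way with different sizes. At 8 h 8 of the 10 were called higher and none lower, and the exceptions were 244616_x_at at 0.61 (limma adjusted p = 0.114) and 205385_at at 0.17 (limma adjusted p = 0.658). At 24 h 10 of the 10 were called higher, from 1.01 for 205385_at to 3.51 for 217542_at, with a median of 2.75. Probe set 225160_x_at read 4919, 4854 and 4565 with MLN4924 at 24 h against 488, 515 and 535 with DMSO, a 9.32-fold difference. Probe set 217542_at went from 67.4, 46.7 and 54.7 with DMSO to 869, 1084 and 966 with MLN4924 at 24 h. That is a 17.3-fold difference, and at 8 h its call was lost without DMSO replicate 1 at 8 h or MLN4924 replicate 2 at 8 h (limma adjusted p of 0.0552 and 0.0576, range over its alternatives 0.0043 to 0.0576). The 8 h call of 211832_s_at was lost in 6 of 17 alternatives (limma adjusted p up to 0.245), among them leaving out DMSO replicate 2 or 3 or any MLN4924 replicate of that time, and that of 237891_at in 3, among them leaving out MLN4924 replicate 1 (up to 0.0657). The 8 h call of 217373_x_at was lost with only the 6 arrays of that time (limma adjusted p = 0.0647, range over its alternatives 1.03e-04 to 0.0647). Probe sets 205385_at and 237891_at exceeded the median of all values only in MLN4924 at 24 h, and 211832_s_at in 2 groups, so their lower values are small beside the added 32, which compresses their change. The drift in DMSO from 1 to 24 h was called for 2 of the 10, 229711_s_at and 225160_x_at, and differences between probe sets of 1 gene were not tested.

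PPM1D, the phosphatase, followed a similar course, with smaller differences on its leading probe set than on that of MDM2. By the median over a gene's probe sets PPM1D was above MDM2 at 8 h (1.015 beside 0.67). At 24 h it was below MDM2 (2.06 beside 2.75). Differences between the genes were not tested. Its leading probe set, 204566_at, read 679, 779 and 759.8 with MLN4924 at 8 h and 387, 363 and 365 with DMSO. At 24 h it read 1576, 1648 and 1477 with MLN4924 and 370.1, 357 and 357 with DMSO. No treated array overlapped the vehicle arrays at either time, and the DMSO means stayed between 361 and 414 over all 5 times. PPM1D was 1.99-fold higher at 8 h, a log2 difference of 0.93 (SE 0.0727, limma adjusted p = 2.79e-09), and 4.34-fold higher at 24 h, a log2 difference of 2.02 (SE 0.0727, limma adjusted p = 2.67e-16), which were ranks 100 and 45 of the 19775 genes.

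At 4 h PPM1D differed by 0.08 (95% interval -0.07 to 0.23) and was not called. Its drug effect then grew by 0.85 from 4 to 8 h (SE 0.103, limma adjusted p = 5.04e-05) and by 1.09 from 8 to 24 h (limma adjusted p = 4.62e-08). The second probe set, 230330_at, exceeded the median of all values in 4 groups. It gave 1.10 at 8 h (SE 0.1996, limma adjusted p = 5.49e-04) and 2.10 at 24 h (SE 0.1996, limma adjusted p = 1.01e-08), so both probe sets of the gene were called at both times. Levels of PPM1D fell into 3 tiers without overlap: MLN4924 at 24 h (1567 ± 85.95), MLN4924 at 8 h (739 ± 53.3), and the other 8 groups between 361 and 439.8.

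**Figure D2:**
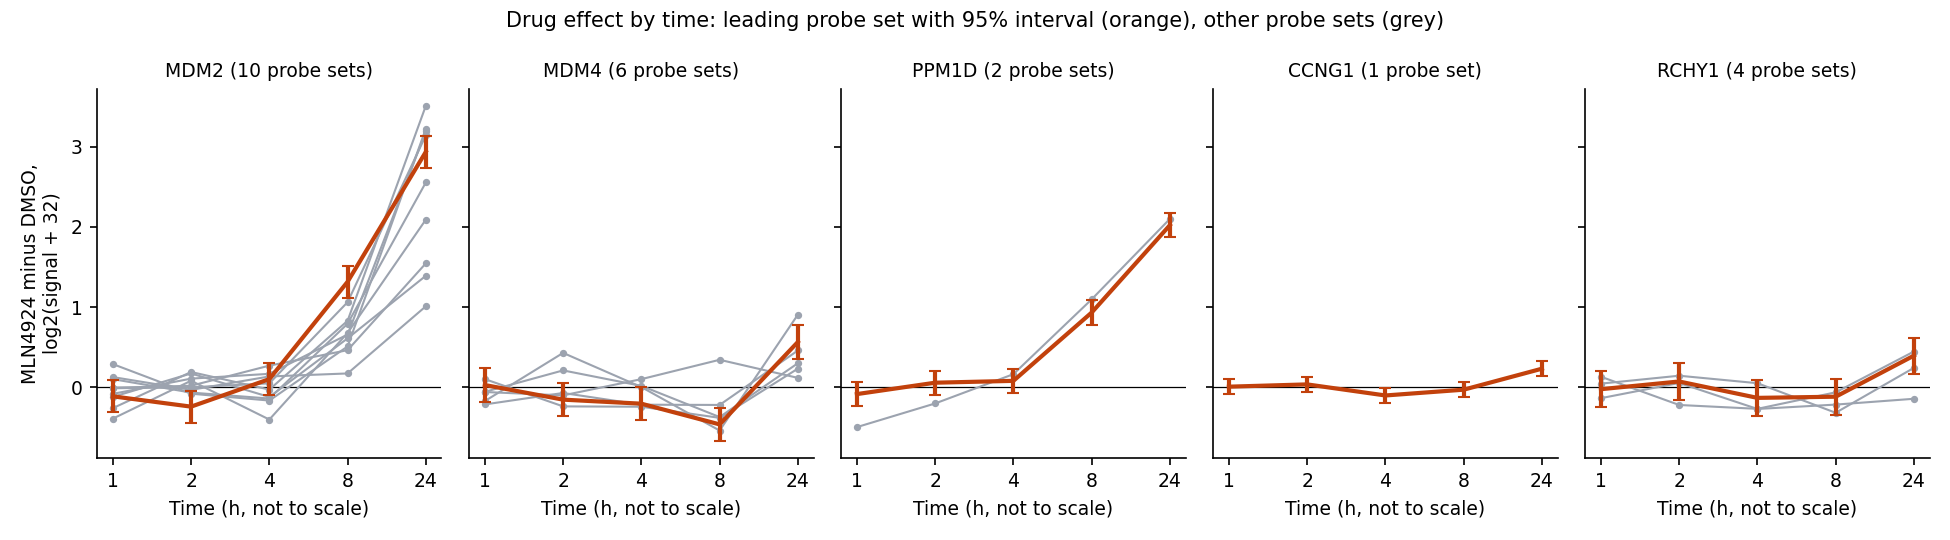
Difference MLN4924 minus DMSO in log2(signal + 32) against time in h, 1 panel per gene; orange lines are the leading probe set with its 95% interval and grey lines the other probe sets. The 10 MDM2 and 2 PPM1D probe sets turn upward after 4 h, and 5 of the 6 MDM4 probe sets lie below 0 at 8 h and above 0 at 24 h.

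MDM4, the p53-binding relative of MDM2, went down before it went up. Its leading probe set, 236814_at, read 925, 737 and 848 with MLN4924 at 8 h and 1178, 1138 and 1162 with DMSO. At 24 h it read 1825, 1546 and 1845 with MLN4924 and 1035, 1192 and 1266 with DMSO. All 3 treated arrays were below all 3 vehicle arrays at 8 h and above them at 24 h, while the vehicle means stayed between 1159 and 1296. The log2 difference was -0.46 at 8 h (SE 0.1005, limma adjusted p = 0.00325, a ratio of mean signals of 0.722) and 0.57 at 24 h (SE 0.1005, limma adjusted p = 1e-04, a ratio of 1.49). The change between both times, 1.03 (SE 0.142, limma adjusted p = 1.31e-05), was itself called. Being called lower at 8 h and higher at 24 h was met by 0.258% of the 19775 leading probe sets, 51 in all.

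The call at 8 h depended on the scaling. With each array centred on its median in place of quantile normalization it was -0.28 (limma adjusted p = 0.113), and with only the 6 arrays of that time its adjusted p was 0.0552, in a range of 0.00195 to 0.113 over 20 alternatives, all with a negative difference. The ACTB ratio averaged 1.364 in MLN4924 and 1.227 in DMSO at 8 h, and with it as a covariate the difference was -0.41 (limma adjusted p = 0.0141).

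The remaining MDM4 probe sets were mostly of the same pattern. At 8 h 3 of the 6 were called lower and none higher, with -0.38 for 225740_x_at (limma adjusted p = 0.00131) and -0.37 for 225742_at (limma adjusted p = 0.0105) beside the leading one (225740_x_at missed the threshold with median centring and with the 6 arrays alone, limma adjusted p up to 0.111). At 24 h 5 of the 6 were called higher, from 0.23 for 225740_x_at to 0.91 for 205655_at. The 24 h calls of 225740_x_at and 225742_at were each lost in 6 of 17 alternatives, with adjusted p-values up to 0.101 and 0.118, among them leaving out DMSO replicate 1, DMSO replicate 3 or MLN4924 replicate 1 at 24 h. Without MLN4924 replicate 3 at 8 h, 225742_at missed the threshold at that time too (limma adjusted p = 0.0504, range over its alternatives 0.00519 to 0.0504). Probe set 241876_at went against the others at 8 h: its treated arrays read 102, 79.4 and 71.3 and its vehicle arrays 56.1, 62 and 58.7, a difference of 0.34 that was not called (limma adjusted p = 0.119). Over the 30 arrays it correlated with the leading probe set at -0.185, whereas 225740_x_at did so at 0.874.

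**Figure D3:**
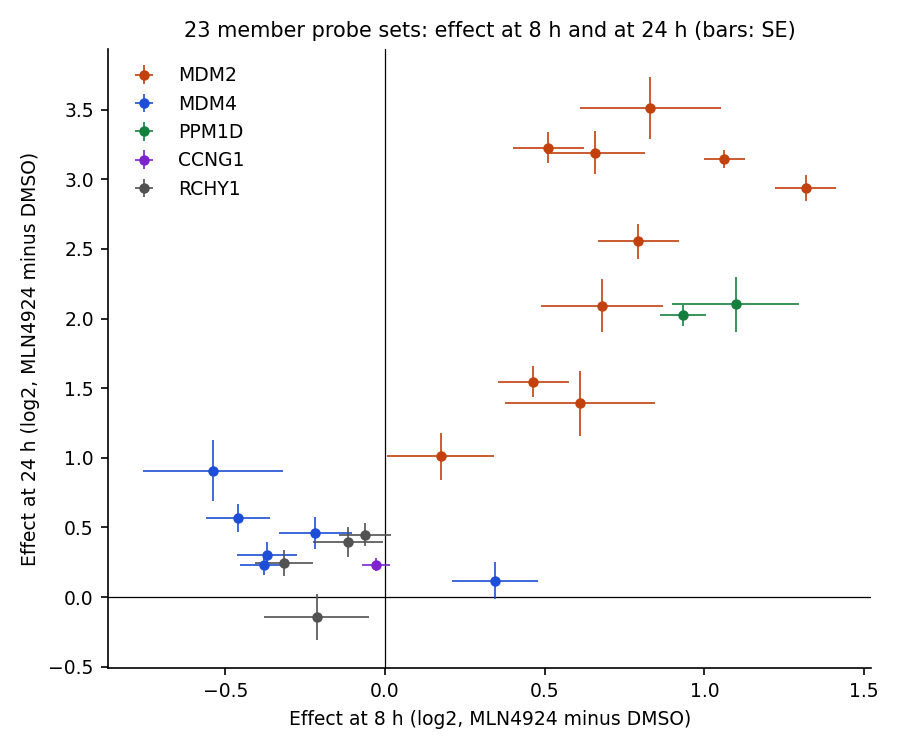
Difference at 24 h against difference at 8 h (both log2, MLN4924 minus DMSO) for the 23 probe sets, coloured by gene, with bars for the SE. MDM2 and PPM1D lie in the upper right, from 1.01 to 3.51 at 24 h, and 5 of the 6 MDM4 probe sets lie in the upper left, below 0 at 8 h and above 0 at 24 h.

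CCNG1, cyclin G1, is measured by 1 probe set, 208796_s_at. It read 3431, 3442 and 3381 with MLN4924 at 24 h and 2904, 2904 and 2899.8 with DMSO, and the groups did not overlap. The treated mean was 1.18-fold the vehicle mean, a log2 difference of 0.23 (SE 0.0449, limma adjusted p = 2.56e-04). At 8 h the arrays overlapped (1997, 2124 and 2127 with MLN4924 against 2111, 2147 and 2113 with DMSO) and the difference was -0.03 (95% interval -0.12 to 0.06).

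CCNG1 rose late in both arms. In DMSO it rose by 0.45 from 1 to 24 h (limma adjusted p = 1.60e-07) and in MLN4924 by 0.68 (limma adjusted p = 2.56e-11). All 8 groups up to 8 h had means between 1977 and 2153, and the order above them was DMSO at 24 h (2903 ± 2.47) and MLN4924 at 24 h (3418 ± 32.6). The drug effect grew by 0.26 from 8 to 24 h (SE 0.0635, limma adjusted p = 0.00596), but with each array centred on its median this growth was 0.22 and not called (limma adjusted p = 0.221, range over its alternatives 4.92e-04 to 0.221).

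RCHY1, the ligase Pirh2, was called higher at 24 h only, on its leading probe set. Its leading probe set, 212749_s_at, read 583, 594 and 436 with MLN4924 at 24 h and 398, 385 and 408 with DMSO. The arrays did not overlap, but the third treated array was close to the vehicle range. The difference was 0.40 (SE 0.109, limma adjusted p = 0.00757), 1.35-fold in mean signal. Without MLN4924 replicate 2 at 24 h it was 0.32 and no longer called (limma adjusted p = 0.0552), nor was it with only the 6 arrays of that time (limma adjusted p = 0.0675, range over its alternatives 4.95e-04 to 0.0675). At 8 h it was -0.12 (95% interval -0.34 to 0.11) and not called.

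Probe set 214281_s_at of RCHY1 gave a similar value at 24 h with less spread. It read 449, 467 and 411 with MLN4924 and 339.7, 311 and 297 with DMSO, a difference of 0.45 (SE 0.0814, limma adjusted p = 1.34e-04). Probe set 212743_at, above the median of all values in 6 groups, was called lower at 8 h at -0.32 (limma adjusted p = 0.0269), a call lost in 5 of 18 alternatives, the ACTB covariate and leaving out DMSO replicate 1 or MLN4924 replicate 2 at 8 h among them. Its value at 24 h was 0.24 and not called (limma adjusted p = 0.0537). It was called at 24 h with the ACTB covariate (limma adjusted p = 0.0368) and without DMSO replicate 3 at 24 h (limma adjusted p = 0.0109). The same held with 64 added, array weights, low signal left out, and leading probe sets without _x_at and _s_at, but not in its other alternatives. Probe set 235300_x_at was called at no time. In order of level the 10 group means of the leading probe set ran from 397 in DMSO at 24 h to 538 in MLN4924 at 24 h. The arrays of neighbours in that order overlapped at each step. Within the MLN4924 arm 0 of the 4 RCHY1 probe sets were called from 1 to 24 h (-0.14 to 0.25), where 21.4% of all probe sets were. Without MLN4924 replicate 3 at 24 h the leading one was called, at 0.35 (limma adjusted p = 0.0214).

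At the early times the members were not called. After adjustment limma called 0 of the 23 probe sets at 1, 2 and 4 h, against 0.0201%, 0.313% and 2.05% of all probe sets. Before adjustment its p fell below 0.05 for 2 of the 23 at 1 h, 4 at 2 h and 5 at 4 h. Over all 54613 probe sets the counts before adjustment were 2780 at 1 h, 5500 at 2 h and 6134 at 4 h. Among the leading probe sets, 0 of 5 fell below 0.05 before adjustment at 1 h. MDM2 alone did so at 2 h (lower) and CCNG1 alone at 4 h, at -0.10 (95% interval -0.19 to -0.01). At 2 h DMSO replicates 1 and 2 had the highest ACTB ratios (1.744 and 1.681), and replicate 3 had 1.263. MDM2 in DMSO replicate 2 read 1308 beside 965 and 983 in the other replicates. The fit with the ratio as a covariate did not call MDM2 at 2 h either, and a share of the ratio in that difference was not tested. By the same test 2 of 16 p53 target genes for arrest and repair were called higher and 1 lower at 4 h, and 2 of 11 for cell death were called higher, against 1.6% and 1.31% of all genes. PMAIP1, a BH3-only killer protein, was at 0.87 at 2 h (limma adjusted p = 7.83e-08) and at 1.09 at 4 h (limma adjusted p = 2.85e-10), GADD45A, a growth arrest protein, at 0.49 (limma adjusted p = 0.00588), PLK2 at 0.42 (limma adjusted p = 0.00154) and FAS at 0.28 (limma adjusted p = 0.0246). ZMAT3, another target, was lower at -0.34 (limma adjusted p = 0.0153). Differences between these genes and the 5 members were not tested. XPC, a DNA repair gene, was the 1 other target called at 2 h, at -0.38 (limma adjusted p = 0.0257). Genes of these early times were named after their values were seen.

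Many p53 target genes were called higher at the times when MDM2 and PPM1D were. Of 16 measured target genes for arrest and repair (of 18 listed) 7 were called higher and 0 lower at 8 h, with a median of 0.27, and 13 higher and 0 lower at 24 h, with a median of 1.36. Over all genes the medians were 0.00 at both times, with 7.52% called higher and 6.07% lower at 8 h and 15.2% and 17.2% at 24 h. GDF15, a secreted stress cytokine, led at 2.41 at 8 h and 6.44 at 24 h, and its signal went from 62.6 ± 12.3 in DMSO to 8149 ± 281 in MLN4924 at 24 h (SD, n = 3). GADD45A was at 1.51 and 3.88, CDKN1A, which encodes the CDK inhibitor p21, at 1.34 and 3.34, and PLK2 at 0.74 and 1.89. POLH, PLK3 and SPATA18 were not called at 24 h, at 0.04, 0.25 and 0.19.

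Of 11 measured target genes for cell death (of 12 listed) 5 were called higher and 1 lower at 8 h, with a median of 0.19, and 9 higher and 1 lower at 24 h, with a median of 1.23. FAS, a death receptor, was at 1.04 at 8 h and 2.69 at 24 h, PMAIP1 at 1.20 and 1.80, and AEN, a nuclease, at 0.45 and 1.46. TNFRSF10B, a receptor of the ligand TRAIL, was at 0.62 at 8 h, and TP53INP1 at 1.46 at 24 h. The lower call at 8 h was TP53I3, at -0.31 (limma adjusted p = 0.0196), which was called higher at 24 h at 0.33. With median centring the 8 h counts of this list were 7 higher and 0 lower, so that no lower call was left. With signals as deposited, and with the ACTB ratio as a covariate, they were 4 higher and 1 lower. The lower call at 24 h was PERP, a desmosome protein and p53 target, at -0.32 (limma adjusted p = 3.98e-04), and APAF1 was not called, at -0.16. The counts of the arrest and repair list at 24 h were the same, 13 and 0, with signals as deposited and with median centring, and those of the death list were 9 and 1 and 9 and 0.

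**Figure D4:**
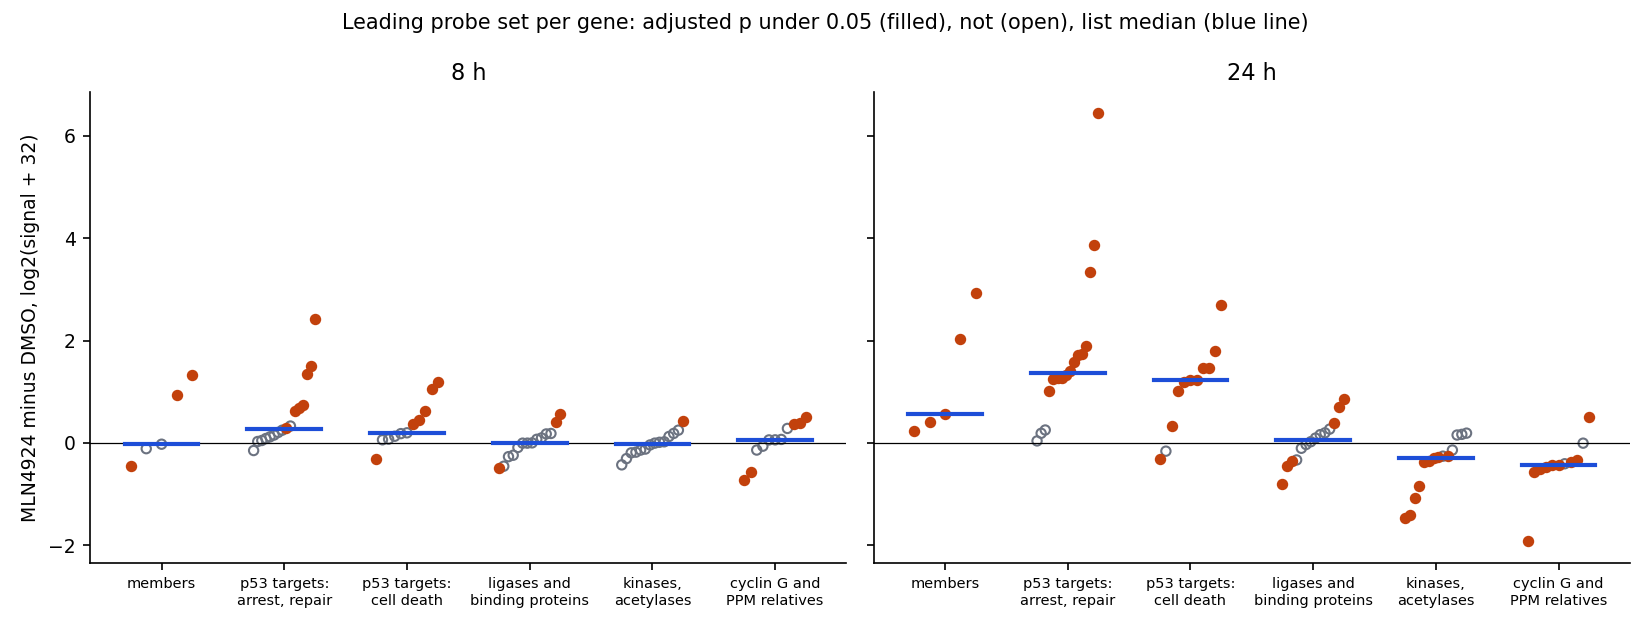
Difference MLN4924 minus DMSO in log2(signal + 32) of the leading probe set of each gene at 8 h (left) and 24 h (right), for the 5 members and 5 lists; filled points have an adjusted p under 0.05, open points do not, and blue lines are medians. At 24 h the 2 target lists lie mostly above 0, with medians of 1.36 and 1.23. The kinase and acetylase list and the relatives lie mostly below 0 at 24 h, with medians of -0.29 and -0.43. At 8 h the medians of these 2 lists were -0.025 and 0.06.

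Other proteins that act on p53 or on MDM2 were called in both directions. Of 14 measured ligases, deubiquitinases and binding proteins (of 17 listed) 2 were called higher and 1 lower at 8 h, and 3 higher and 3 lower at 24 h, with a median of 0.06, beside 7.52% of all genes higher and 6.07% lower at 8 h and 15.2% and 17.2% at 24 h. These counts are near the shares over all genes and are no result about the list. USP7, a deubiquitinase of p53 and MDM2, was higher at 8 h at 0.55 (limma adjusted p = 2.89e-04) and not called at 24 h at 0.19 (limma adjusted p = 0.161; 0.30 and called with median centring). UBE4B, a ligase that works with MDM2, was higher at 8 h at 0.41. STUB1, a ligase paired with chaperones, was lower at -0.50 at 8 h (-0.28 and not called with median centring, limma adjusted p = 0.159) and at -0.81 at 24 h. At 24 h ARIH2 was at 0.85, RPS27L, a ribosomal protein relative that is itself a p53 target, at 0.70, and TRIM24 at -0.45.

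Of 14 kinases, acetylases and other modifiers of p53, 1 was called higher and 0 lower at 8 h, and 0 higher and 9 lower at 24 h, with a median of -0.29. Over all genes 7.52% were called higher and 6.07% lower at 8 h, and 15.2% and 17.2% at 24 h. The 8 h counts are near these shares and are no result about the list. With signals as deposited the 24 h counts were 1 higher and 10 lower, and with median centring 1 and 5. The largest decreases were those of AURKA, a mitotic kinase, at -1.47, HIPK2, a kinase that phosphorylates p53 after damage, at -1.42, CHEK1, the checkpoint kinase, at -1.07 and ATM, the damage kinase that PPM1D opposes, at -0.85. KMT5A, a lysine methyltransferase, was higher at 8 h at 0.43 (limma adjusted p = 0.00643) and not called at 24 h.

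The relatives of cyclin G1 and of PPM1D were mostly called lower at 24 h. Of 11 measured, 3 were called higher and 2 lower at 8 h, and 1 higher and 8 lower at 24 h, with a median of -0.43 (1 and 9 with signals as deposited, 1 and 7 with median centring). The shares over all genes were 7.52% higher and 6.07% lower at 8 h, and 15.2% and 17.2% at 24 h. CCNG2, the other cyclin G, was at 155 ± 15.9 in MLN4924 and 679.8 ± 26.1 in DMSO at 24 h, a log2 difference of -1.93 (SE 0.111, limma adjusted p = 1.44e-12) beside 0.23 for CCNG1. It was lower at 8 h too, at -0.72 (limma adjusted p = 8.23e-05). Among the phosphatases PPM1B was at -0.57 and PPM1M at -0.51 at 24 h, and PPM1A, at 0.50, was the 1 called higher. At 8 h it was at 0.36, and PPM1K was at -0.57, PPM1E at 0.50 and PPM1G at 0.38, of which PPM1G was not called with the ACTB ratio as a covariate (limma adjusted p = 0.117). No set test was run on any of these lists, and the lists share the same arrays with the members.

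The genes most like each member were ranked by Pearson's r over the 30 arrays among 13547 leading probe sets, which share arrays, so that a common response to drug or time raises every r. For MDM2 the first was SNAPC1, a subunit of the complex that transcribes small nuclear RNAs, at 0.986 (Spearman 0.847), followed by FAS at 0.969, NRG1 at 0.965, LARP4 at 0.963 and PLCXD2 at 0.963. The Spearman values of these last genes were lower, at 0.752 for FAS, 0.7215 for NRG1, 0.762 for LARP4 and 0.733 for PLCXD2. For PPM1D it was again SNAPC1, at 0.978 (Spearman 0.8625), followed by GDF15 at 0.974, PDLIM1 at 0.974, NRG1 at 0.973 and FAS at 0.972. Spearman values with PPM1D were 0.679 for PDLIM1, 0.709 for NRG1 and 0.654 for FAS. SNAPC1 was at 1.16 at 8 h and 3.14 at 24 h. MDM2 and PPM1D correlated with each other at 0.973, and GDF15, rank 2 for PPM1D by Pearson, had rank 2491 by Spearman, at 0.346.

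MDM4 had less close companions. DDX6, an RNA helicase of processing bodies, was first at 0.876, followed by ZRSR2 at 0.858, SNX24 at 0.851, NOTCH2NLA at 0.845 and ARHGAP29 at 0.8297, and its r with MDM2 was 0.384. For CCNG1 they were FEZ1 at 0.956, ADPRM at 0.954, SAT1, a polyamine acetylase, at 0.954, LETMD1 at 0.9504 and TGDS at 0.9498. Their rank correlations with CCNG1 were lower, with Spearman values from 0.475 for LETMD1 and 0.481 for FEZ1 to 0.695 for SAT1. For RCHY1 they were GET3 at 0.729, MTFMT at 0.724, DDX6 at 0.723, LIN37 at 0.718 and TYW5 at 0.714, the lowest values of the 5 members.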

How the data were processed

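The deposited values are linear intensities of 54675 probe sets on each array, which the authors made with Affymetrix Expression Console per the submitters' processing notes; neither its version nor its summarization method is stated in these sources. The 2% trimmed mean was 150.02 on every array, 55 values were 0, and no detection calls were used. Groups, times and replicate numbers come from the sample titles. Probe sets were named through the supplied platform annotation (41097 with 1 symbol, 1801 with several, 11777 with none). A gene the annotation does not name could not enter a list: BTG2, FDXR, BBC3, USP10, RPL5 and RPL23 were not analysed here. Here the intensities were quantile-normalized and transformed as log2(signal + 32). Fits used limma 3.58.1 in R 4.3.3, with 1 mean per group over 30 arrays (20 residual degrees of freedom), eBayes, two-sided tests and Benjamini-Hochberg over 54613 probe sets per contrast, without 62 controls. The number of arrays, 3 per group, limits the precision, and adding 32 compresses changes of dim probe sets. The fit was tested on simulated data. Replicate numbers were not used as pairs. For this check each group's mean was subtracted, and probe sets with a group mean above the median of all values were used. These deviations correlated at -0.124 to 0.083 between DMSO and MLN4924 arrays of the same number and time, with 0 of 15 pairs above 0.1.

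The members and lists were chosen with earlier results of these data known. The text gives every member probe set, the called genes with the 4 largest effects per list at 8 and 24 h, and the 5 genes most correlated with each member. TP53I3, PERP, APAF1, POLH, PLK3, SPATA18, SNAPC1's effects and the genes of the early times fall outside that rule and were chosen after their values were seen. Arrays showed no duplicate pair (highest correlation 0.98975 within a group and 0.98897 between groups). Alternatives were the scaling, the value added, a filter on dim probe sets, the features tested, the arrays in the fit, the ACTB ratio, array weights and the probe set that stands for a gene. Sequences are from RefSeq.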

Additional observations from a re-analysis of the deposited data

Results flagged for a closer look

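The drug effect differed between consecutive times, by limma's test of that difference, for 2 genes from 4 to 8 h and 5 from 8 to 24 h. From 4 to 8 h the effect on MDM2 (229711_s_at) grew by 1.21 on the log2 scale (SE 0.135) and that on PPM1D (204566_at) by 0.85 (SE 0.103). From 8 to 24 h it grew by 1.62 for MDM2 (SE 0.135), by 1.09 for PPM1D (SE 0.103), by 1.03 for MDM4 (236814_at, SE 0.142), by 0.26 for CCNG1 (208796_s_at, SE 0.0635) and by 0.51 for RCHY1 (212749_s_at, SE 0.154). In all 7 cases the 3 MLN4924 arrays of the later time lay above the 3 DMSO arrays of that time. Over all probe sets this held for 12% at 8 h and 18.8% at 24 h. The 7 cases were picked by a test on the same arrays, so their separation is no added evidence. MDM4 was the 1 gene of the 5 whose effect was called with opposite signs at the times compared. The growth for RCHY1 had an adjusted p of 0.0277 and was not called in 9 of 23 alternatives, where it was up to 0.0994, among them leaving out DMSO replicate 1 or 2 or MLN4924 replicate 1 or 2 at 24 h, or DMSO replicate 1 or MLN4924 replicate 1 or 3 at 8 h.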

How the results depend on the processing

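Of 6236 comparisons of a single member probe set under an alternative, 6095 stayed on their side of the threshold, 119 lost a call, 22 gained one and 0 reversed. The numbers of the 5 genes called at 1, 2 and 4 h were 0 under each alternative, that at 8 h was 2 to 4 and that at 24 h was 4 to 5. MDM2 and PPM1D were called at 8 and 24 h in each of them, and the MDM2 difference ranged from 0.71 to 1.47 at 8 h and from 2.46 to 3.06 at 24 h with 229711_s_at or the mean of its probe sets, and was 0.83 and 3.51 where 217542_at stood for the gene. The number of genes whose drug effect grew from 4 to 8 h was 1 (PPM1D) instead of 2 with leading probe sets chosen among those without _x_at or _s_at, which leaves no CCNG1 probe set. The number from 8 to 24 h was 3 instead of 5 with each array centred on its median, and 4 to 5 without single arrays. Of the comparisons within an arm, whose alternatives were chosen after seeing the data, DMSO 24 h minus 1 h gave 0 genes instead of 2 with that choice of leading probe sets, and with a gene's probe sets averaged the 2 were PPM1D and CCNG1 in place of MDM2 and CCNG1. DMSO 24 h minus 8 h gave 0 instead of 2 with it, and 1 with 1 or 16 added, with median centring, with signals as deposited, with a gene's probe sets averaged, and 1 to 2 without single arrays (1 without DMSO replicate 1 or 3 at 24 h or any DMSO replicate at 8 h). The fit with a replicate block (replicate number as a block) changed no call of a leading probe set, with an adjusted p of 0.00207 for MDM4 at 8 h and 3 and 5 genes called at 8 and 24 h. Over all probe sets the share of higher calls at 8 h was 52.4%, and 41.7% with signals as deposited and 73.5% with median centring, and for the change from 4 to 8 h it was 50% and 69.1% with median centring, whose median over all probe sets was 0.0719 at 8 h. Counts of all probe sets called were 11 at 1 h (0 to 275 over the alternatives), 171 at 2 h (1 to 859), 1119 at 4 h (387 to 1705), 5321 at 8 h (2134 to 6170) and 13552 at 24 h (5083 to 14214). Some alternatives tested fewer features, so these counts do not share 1 base. The 5083 at 24 h came from leading probe sets chosen among those without _x_at or _s_at. By Spearman SNX24 was the gene most like MDM4. Signals near background limit 205385_at, 237891_at and 211832_s_at of MDM2 and 230330_at of PPM1D.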
